A study of Mus musculus with 6 samples.

Results

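The genes described here are 10 heat shock chaperones and co-chaperones, of 31053 genes counted in the series. They were taken as a set by name, with earlier results of these data known. Hspa1a, Hspa1b, Dnajb1, Hsph1, Hspb1 and Bag3 were treated as the 6 inducible members, whose transcription is raised by stress, and Hspa8, Hsp90aa1, Hspd1 and Hspe1 as the 4 constitutive members, which unstressed cells also transcribe. Hsp90aa1 is a borderline case, since stress raises it too and its paralogue Hsp90ab1 is the constitutive form. All 10 were counted and passed the filter on low counts in each of the 4 cell classes tested. Single-cell RNA libraries (10x Genomics, 3′ ends) had been made from female C3TAG mice, also written C3(1)-Tag, in which the C3(1) promoter drives the SV40 large T antigen on the FVB/NJ background. Every group carried this transgene, and no other treatment was named. There were 2 Prepuberty libraries from whole mammary glands at 5 weeks of age, 2 DCIS libraries from whole glands holding ductal carcinoma in situ at 14 weeks, and 2 Tumor libraries from palpable mammary tumors at over 18 weeks. For each gene the question was whether its level differed between the states within a cell class, and between classes. Hspa1a and Hspa1b are among the genes that the study named from these same libraries, so their levels here are not independent evidence.

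Heat shock proteins keep unfolded proteins soluble and help them to refold. Under heat or proteotoxic stress the transcription factor HSF1 forms trimers, binds repeats of the unit GAA in the promoters of these genes and raises their transcription within minutes. The constitutive members fold newly made and mitochondrial proteins in unstressed cells. Warm enzymatic dissociation of tissue is itself known to induce the inducible members, together with immediate early genes of the Fos and Jun families.

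How the tissue was dissociated is given first for that reason. The labels give glands and tumors 1 overnight digestion with collagenase and hyaluronidase at body temperature, whereas the study's methods give that digestion to the glands and a separate tumor dissociation kit to the tumors. The methods also name a later version of the 10x reagents for Tumor 2 than for the other libraries. Dissociation and the Tumor state cannot be told apart in these data, while Prepuberty and DCIS glands shared 1 protocol in both sources. The labels do not say whether the libraries of a state came from separate animals, so p-values measure the spread between libraries, which may be technical.

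After filtering, 21543 cells with 236560652 unique molecular identifiers (UMIs) were left, 2547 to 4310 cells a library, with a median of 6475 to 13620 UMIs a cell. Cells were clustered without the chaperone genes and named from markers as epithelial-like (7573 cells), fibroblast-like (5889 cells), endothelial-like (2280 cells) and macrophage-like (1173 cells), with 5 smaller named classes. Each of these 4 classes held every one of its own markers in every state. UMIs of the T antigen were found in 2.70 to 27.5% of epithelial-like cells of the glands and in 73.1 and 55.6% of those of the tumors. Levels are given as CPM, the UMIs of a gene per 1000000 UMIs of a class in 1 library, in which a transcript counts once whatever its length. CPM values and the orders of libraries read from them were not scaled by the normalization factors that the fold changes used. In epithelial-like cells these factors ran from 0.87 in DCIS 2 to 1.32 in Tumor 2. From DCIS 1 to Tumor 2 they ran from 0.79 to 1.51 in fibroblast-like, 0.81 to 1.18 in endothelial-like and 0.81 to 1.46 in macrophage-like cells. A DCIS library was thus lowest and Tumor 2 highest in each class, so the offset in CPM went with the states. Few cells lay behind some sums, with 33 endothelial-like cells in Tumor 2, 111 epithelial-like cells in Prepuberty 2 and 73 macrophage-like cells in Prepuberty 2. Of the cells kept, 514 shared their barcode with a cell of another library.

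The summed level of the 6 inducible members was highest in both DCIS libraries in each of the 4 classes, and most of its genes passed the test for a lower level in Tumor in at least 1 class. Hsph1 and Hspb1 passed in all 4 classes, Hspa1b in 3, Bag3 in 2 and Dnajb1 in 1. Hspa1a, which had some of the widest differences, passed in no class, and its 2 Tumor libraries lay far apart. Of the constitutive members Hspe1 fell in fibroblast-like and endothelial-like cells and Hspd1 in endothelial-like cells, while Hspa8 and Hsp90aa1 passed in no class. Called means an adjusted p under 0.05 in edgeR's quasi-likelihood test on the summed UMIs of a class, adjusted over all genes.

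From DCIS to Tumor, 7 of 10 members were called lower in endothelial-like cells, where 6.79% of all genes tested were called lower. In fibroblast-like cells 5 members were called lower against 6.37% of all genes, in epithelial-like cells 3 against 1.66%, and in macrophage-like cells 2 against 3.5%. No member was called higher with all libraries in the fit. The counts given below for left-out libraries and for clusters without integration take in calls of either direction. Hspd1 in macrophage-like cells had a positive value throughout (log2 fold change 1.40, and 0.85 to 1.76 over the alternatives), so a call of it there is a rise. The median log2 fold change of the members was -2.42 in endothelial-like, -2.03 in fibroblast-like, -1.51 in epithelial-like and -0.57 in macrophage-like cells, and that of all genes lay between -0.05 and 0.13. Both Tumor libraries lay below both DCIS libraries for 10 members in epithelial-like cells (14.9% of all genes), 9 in endothelial-like (20.4%), 8 in fibroblast-like (12.9%) and 3 in macrophage-like cells (12.4%). The endothelial-like count was 6 to 10 with any 1 library left out. In epithelial-like cells it was 0 without DCIS 1 (7 members had an unadjusted p under 0.05) and 0 without DCIS 2 (8 members), 8 without Tumor 1 and 4 without Tumor 2. In fibroblast-like cells it was 2 without DCIS 1, 0 without DCIS 2 (7 members unadjusted), 7 without Tumor 1 and 3 without Tumor 2. In macrophage-like cells it was 0 without DCIS 1 (4 members unadjusted), 1 without DCIS 2, 5 without Tumor 1 and 2 without Tumor 2. Clusters made without integration of the libraries left 0 calls in endothelial-like cells (8 members unadjusted) and 0 in epithelial-like cells (9 members unadjusted). The Tumor libraries then held only 13 and 16 endothelial-like cells, and the endothelial-like change of Hspb1 was -2.60 in place of -4.95 on the log2 scale. Tumor 2 then held 133 epithelial-like cells in place of 1416 and 37 fibroblast-like cells in place of 298. Clusters with 989 and 850 of its cells reached too few markers for a name. The class name of most Tumor 2 epithelial-like cells thus depended on integration.

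From Prepuberty to DCIS, no member was called in any of the 4 classes by edgeR. The shares of all genes called were also 0% in epithelial-like, 0% in fibroblast-like and 0% in endothelial-like cells, and 0.0775% in macrophage-like cells. At an unadjusted p under 0.05, 9 of 10 members were higher in DCIS in epithelial-like cells (8.13% of all genes), 4 in fibroblast-like (5.09%), 1 in endothelial-like (6.24%) and 2 in macrophage-like cells (5.54%). DESeq2 called 8 members in epithelial-like cells (2.55% of all genes), 2 in fibroblast-like (0.771%), 0 in endothelial-like (0.69%) and 0 in macrophage-like cells (0.594%). Both DCIS libraries lay above both Prepuberty libraries for 9 members in epithelial-like cells (23.3% of all genes), 8 in fibroblast-like (14.9%), 4 in endothelial-like (10.1%) and 4 in macrophage-like cells (18%). From Prepuberty to Tumor, 6 members were called lower in endothelial-like cells (5.33% of all genes), 2 in fibroblast-like (3.19%) and 1 in epithelial-like cells (3.92%). In macrophage-like cells edgeR called 0 (3.67% of all genes were lower), with 3 members at an unadjusted p under 0.05 and 1 called by DESeq2. The counts that follow take in calls of either direction, and not falls alone. In epithelial-like cells Hspa1a, Hspa1b, Dnajb1 and Hsp90aa1 had positive values (log2 fold change 1.22, 0.75, 0.70 and 1.01 with all libraries). That of Hspa1a was 2.09 without Tumor 2. In macrophage-like cells the value of Hspd1 was positive (1.18). The endothelial-like count was 5 to 8 with any 1 library left out. The fibroblast-like count was 1 without Prepuberty 1, 0 without Prepuberty 2 (4 members unadjusted), 5 without Tumor 1 and 1 without Tumor 2. The epithelial-like count was 0 without Prepuberty 1 and 0 without Prepuberty 2 (1 member unadjusted in each) and 5 without Tumor 2, and the macrophage-like count was 4 without Tumor 1 and 1 without Tumor 2. Without integration both the endothelial-like and the epithelial-like count were 0 (4 and 3 members unadjusted).

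**Figure D1:**
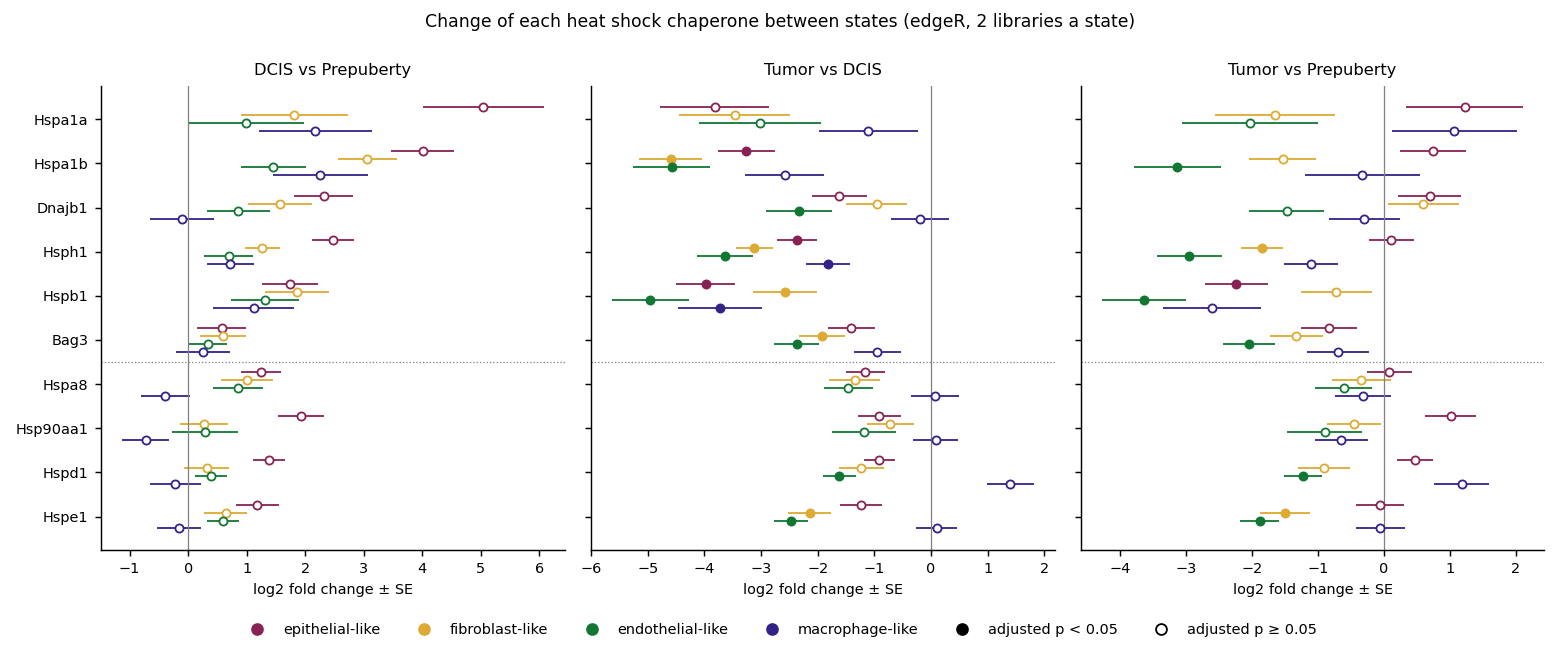
Log2 fold change ± SE of each of the 10 members between states in 4 cell classes, 2 libraries a state, with filled points at an adjusted p under 0.05 and the constitutive members under the dotted line. Between Prepuberty and DCIS no point is filled, and between DCIS and Tumor 7 are filled in endothelial-like, 5 in fibroblast-like, 3 in epithelial-like and 2 in macrophage-like cells, all on the lower side.

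Hspa1a and Hspa1b encode the inducible Hsp70 proteins, which bind exposed hydrophobic stretches of unfolded proteins in cycles of ATP hydrolysis. Hspa1a (ENSMUSG00000091971) lies at chr17:34969190-34972156 and Hspa1b (ENSMUSG00000090877) at chr17:34956436-34959238, both on the minus strand (GRCm38, GENCODE M21). Their transcripts shared no 50-base window in their last 500 bases but shared 56.1 and 60.8% of windows over their last 2500 bases, so counts from 3′ ends can be told apart only near the end. The 250 bases before each start are shown because the pair moved together, and they were taken from RefSeq (GRCm38.p6), read 5′ to 3′ on the minus strand at chr17:34972157-34972406 and chr17:34959239-34959488. Capitals mark a match to GAANNTTC, an inverted pair of the HSF1 unit. 
Hspa1a: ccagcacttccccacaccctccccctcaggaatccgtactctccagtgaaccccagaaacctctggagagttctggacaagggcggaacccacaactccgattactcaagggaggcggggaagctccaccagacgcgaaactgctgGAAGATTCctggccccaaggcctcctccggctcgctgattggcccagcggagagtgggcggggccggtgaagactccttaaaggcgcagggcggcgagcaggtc
Hspa1b: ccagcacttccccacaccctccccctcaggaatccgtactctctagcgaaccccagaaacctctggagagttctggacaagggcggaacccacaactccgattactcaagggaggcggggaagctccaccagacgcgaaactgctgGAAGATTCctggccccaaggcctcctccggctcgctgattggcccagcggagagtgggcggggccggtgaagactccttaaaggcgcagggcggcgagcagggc
These stretches were 98.8% identical, with 3 differing bases, and the match had its first base at position -104 in both, counting the start as 0. RefSeq promoters were found for 8 of the 10 members, without Hspa8 and Hsp90aa1. A match to GAANNTTC or TTCNNGAA on either strand, which for these letters is the same search, stood in 7 of the 8, and in 17.0% of all 27025 genes with a promoter window of 300 bases. A match of letters is a description and not a bound site.

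In epithelial-like cells Hspa1a was at 29.8 and 51.9 CPM in Prepuberty, 1171 and 1255 CPM in DCIS and 183 and 21.4 CPM in Tumor. Both DCIS libraries lay far above the other 4 libraries, and Tumor 1 lay well above Tumor 2, whose level was under both Prepuberty values. The difference between DCIS and Prepuberty was 33-fold (log2 fold change 5.04 ± 1.03 (SE), adjusted p = 0.221), and that between Tumor and DCIS did not pass either (log2 fold change -3.82 ± 0.97 (SE), adjusted p = 0.0735). Between Tumor and Prepuberty the value (log2 fold change 1.22 ± 0.89) turned to -1.34 without Tumor 1. Hspa1b was at 8.22 and 9.24 CPM in Prepuberty, 128 and 129.7 CPM in DCIS and 23.4 and 10.1 CPM in Tumor. The DCIS libraries were close to each other and far above every other library. Hspa1b fell 9.56-fold from DCIS to Tumor (log2 fold change -3.26 ± 0.51 (SE), adjusted p = 0.0357, adjusted p 0.00443 to 0.211 with 1 library left out, above 0.05 without DCIS 1 or DCIS 2, log2 fold change -4.25 without Tumor 1), and its difference between DCIS and Prepuberty did not pass (log2 fold change 4.01 ± 0.54 (SE), adjusted p = 0.149).

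In fibroblast-like cells Hspa1a was at 75.1 and 350.0 CPM in Prepuberty, 592 and 657 CPM in DCIS and 139.7 and 27.1 CPM in Tumor. The Prepuberty libraries were far apart and the DCIS libraries close together and highest. Neither difference passed, at log2 fold change 1.82 ± 0.91 (SE), adjusted p = 0.515, between DCIS and Prepuberty and log2 fold change -3.46 ± 0.98 (SE), adjusted p = 0.0511, between Tumor and DCIS. Hspa1b was at 20.4 and 19.9 CPM in Prepuberty, 153 and 134 CPM in DCIS and 13 and 5.64 CPM in Tumor. The DCIS values lay above all others and the Tumor values below all others. Hspa1b fell 24.1-fold from DCIS to Tumor (log2 fold change -4.59 ± 0.56 (SE), adjusted p = 0.00695, adjusted p 0.00502 to 0.0505 with 1 library left out, above 0.05 without DCIS 2, log2 fold change -5.61 without Tumor 1), and was 8.35-fold higher in DCIS than in Prepuberty without passing the test (log2 fold change 3.06 ± 0.51 (SE), adjusted p = 0.365).

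In endothelial-like cells both genes stood high already in Prepuberty. Hspa1a was at 1079.6 and 3103 CPM in Prepuberty, 2864 and 3674 CPM in DCIS and 903 and 33.3 CPM in Tumor. Prepuberty 2 lay between the DCIS libraries, so these groups overlapped, and Tumor 2 was far below every other library. Its differences were log2 fold change 0.99 ± 0.99 (SE), adjusted p = 0.698, between DCIS and Prepuberty and log2 fold change -3.02 ± 1.07 (SE), adjusted p = 0.0927, between Tumor and DCIS. Hspa1b was at 176 and 365 CPM in Prepuberty, 399 and 793 CPM in DCIS and 44.4 and 4.16 CPM in Tumor, the last of these being 1 UMI. Hspa1b fell from DCIS to Tumor (log2 fold change -4.58 ± 0.68 (SE), adjusted p = 0.00492, adjusted p 0.00606 to 0.0212 with 1 library left out, called in each, log2 fold change -7.71 without Tumor 1 and -3.97 without Tumor 2) and lay lower in Tumor than in Prepuberty (log2 fold change -3.13 ± 0.66 (SE), adjusted p = 0.0176, adjusted p 0.00951 to 0.0531 with 1 library left out, above 0.05 without Tumor 2, log2 fold change -6.25 without Tumor 1 and -2.52 without Tumor 2). Between DCIS and Prepuberty it did not pass (log2 fold change 1.45 ± 0.55 (SE), adjusted p = 0.355).

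Macrophage-like cells held less of both. Hspa1a was at 27.9 and 67.2 CPM in Prepuberty, 164 and 208 CPM in DCIS and 213 and 14.9 CPM in Tumor, and Hspa1b at 10.7 and 15.7 CPM in Prepuberty, 55.6 and 56.3 CPM in DCIS and 21.7 and 2.71 CPM in Tumor. Tumor 1 reached the DCIS level of Hspa1a while Tumor 2 was the lowest library for both genes. The change of Hspa1b from DCIS to Tumor did not pass (log2 fold change -2.59 ± 0.70 (SE), adjusted p = 0.0584).

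**Figure D2:**
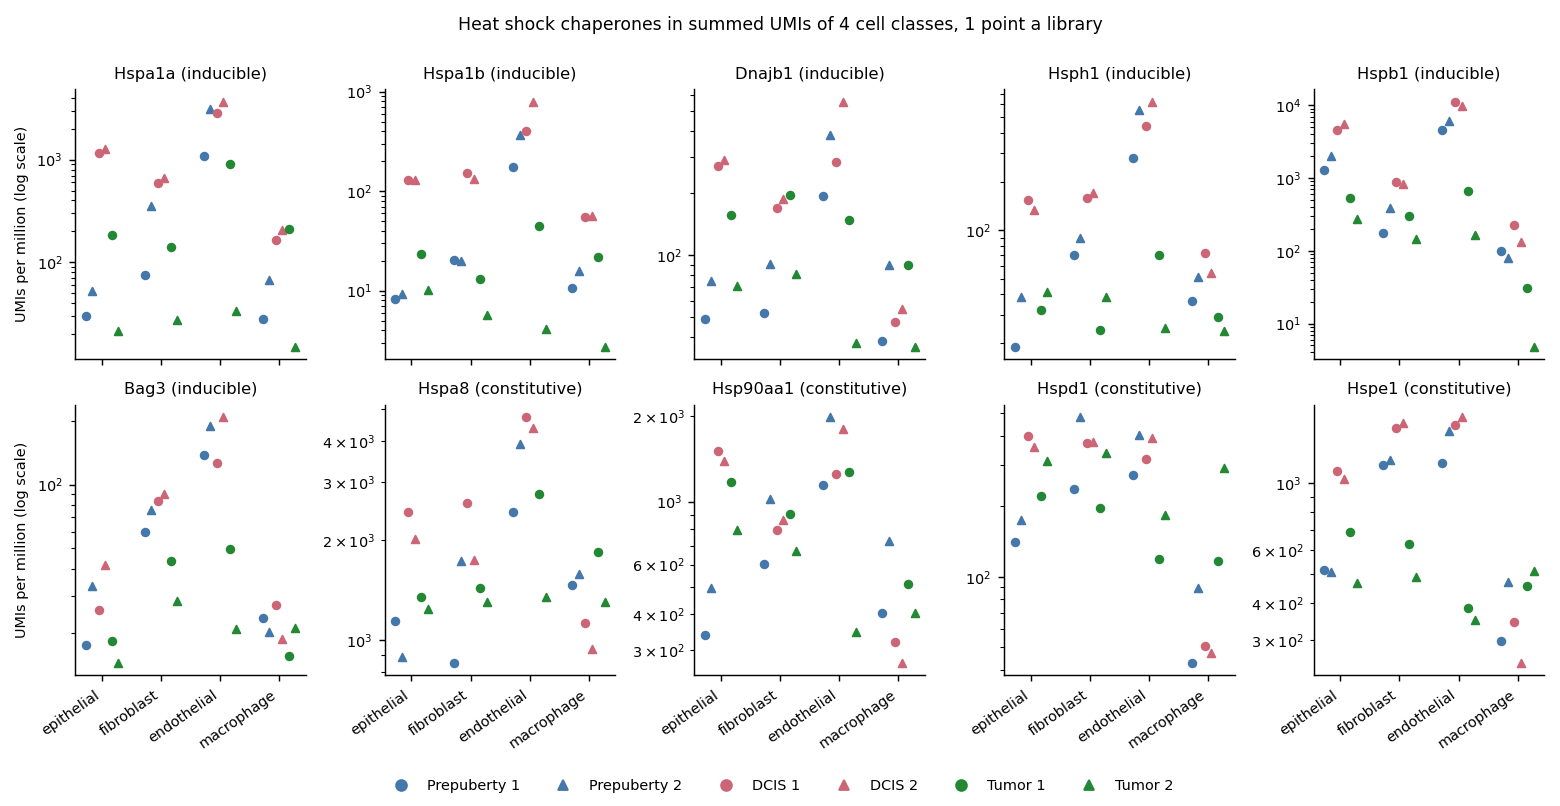
Level of each of the 10 members in CPM (log scale) in 4 cell classes, 1 point for each of 6 libraries, coloured by state and shaped by replicate number. The DCIS points of Hspa1b in epithelial-like cells (128 and 129.7 CPM) stand above the Prepuberty points (8.22 and 9.24 CPM) and the Tumor points (23.4 and 10.1 CPM), whereas those of Hspa8 in macrophage-like cells (1127 and 935 CPM) are the lowest of their class.

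Dnajb1 encodes a J-domain protein of the Hsp40 type that brings substrates to Hsp70 and starts its ATP hydrolysis (ENSMUSG00000005483, chr8:83608193-83612653, plus strand). In epithelial-like cells it was at 49.3 and 74.8 CPM in Prepuberty, 271 and 289 CPM in DCIS and 157 and 70.7 CPM in Tumor. DCIS was highest, and Tumor 2 lay within the Prepuberty range. Neither difference passed, at log2 fold change 2.32 ± 0.50 (SE), adjusted p = 0.223, between DCIS and Prepuberty and log2 fold change -1.62 ± 0.48 (SE), adjusted p = 0.103, between Tumor and DCIS. In fibroblast-like cells the values were 52.6 and 90.6 CPM in Prepuberty, 170.5 and 187 CPM in DCIS and 197 and 81.6 CPM in Tumor, so that Tumor 1 stood above both DCIS libraries (log2 fold change 1.56 ± 0.55 (SE), adjusted p = 0.464, between DCIS and Prepuberty). In endothelial-like cells it was at 194 and 382 CPM in Prepuberty, 284 and 556 CPM in DCIS and 149 and 37.5 CPM in Tumor, with the DCIS and Prepuberty libraries overlapping (log2 fold change 0.86 ± 0.54 (SE), adjusted p = 0.537) and both Tumor libraries below all others. There Dnajb1 fell from DCIS to Tumor (log2 fold change -2.33 ± 0.58 (SE), adjusted p = 0.0331, adjusted p 0.0273 to 0.106 with 1 library left out, above 0.05 without DCIS 2 or Tumor 2, log2 fold change -4.05 without Tumor 1 and -1.72 without Tumor 2). In macrophage-like cells it stayed between 36.0 and 89.6 CPM in all 6 libraries, and its state groups overlapped.

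Hsph1 encodes Hsp110, a large relative of Hsp70 that serves it as a nucleotide exchange factor (ENSMUSG00000029657, chr5:149614287-149636376, minus strand). It was called lower in Tumor than in DCIS in all 4 classes. In epithelial-like cells it was at 18.9 and 38.7 CPM in Prepuberty, 153 and 133 CPM in DCIS and 32 and 41.3 CPM in Tumor. DCIS stood apart from the other 4 libraries, which overlapped among themselves. Hsph1 fell from DCIS to Tumor (log2 fold change -2.37 ± 0.35 (SE), adjusted p = 0.031, adjusted p 0.0148 to 0.196 with 1 library left out, above 0.05 without DCIS 1 or DCIS 2), and its difference between DCIS and Prepuberty did not pass (log2 fold change 2.48 ± 0.36 (SE), adjusted p = 0.149). In fibroblast-like cells the values were 70.7 and 89.2 CPM in Prepuberty, 158 and 169 CPM in DCIS and 24 and 38.5 CPM in Tumor. The order was the same here, but the Tumor libraries were also below both Prepuberty libraries. The fall from DCIS (log2 fold change -3.12 ± 0.33 (SE), adjusted p = 0.00529, adjusted p 0.00848 to 0.0505 with 1 library left out, above 0.05 without DCIS 2) and the difference from Prepuberty (log2 fold change -1.85 ± 0.31 (SE), adjusted p = 0.0139, adjusted p 0.0281 to 0.0816 with 1 library left out, above 0.05 without Prepuberty 2) both passed, and that between DCIS and Prepuberty did not (log2 fold change 1.27 ± 0.31 (SE), adjusted p = 0.464).

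In endothelial-like cells Hsph1 was at 278 and 552 CPM in Prepuberty, 443 and 625 CPM in DCIS and 70.5 and 25 CPM in Tumor. The gland libraries overlapped between DCIS and Prepuberty (log2 fold change 0.69 ± 0.42 (SE), adjusted p = 0.53) and both Tumor libraries lay well below every gland library. Tumor was lower than DCIS (log2 fold change -3.64 ± 0.50 (SE), adjusted p = 0.00349, adjusted p 0.00714 to 0.02 with 1 library left out, called in each, log2 fold change -4.99 without Tumor 1) and lower than Prepuberty (log2 fold change -2.95 ± 0.49 (SE), adjusted p = 0.00682, adjusted p 0.00345 to 0.0315 with 1 library left out, called in each, log2 fold change -4.29 without Tumor 1). In macrophage-like cells the values were 36.5 and 51.5 CPM in Prepuberty, 72.3 and 54.1 CPM in DCIS and 28.8 and 23.7 CPM in Tumor. The groups did not overlap, with Tumor lowest, and the fall from DCIS to Tumor passed (log2 fold change -1.82 ± 0.39 (SE), adjusted p = 0.0272, adjusted p 0.0163 to 0.274 with 1 library left out, above 0.05 without DCIS 1, DCIS 2 or Tumor 2).

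Hspb1 encodes the small heat shock protein Hsp27 (Hsp25 in mice), which holds unfolding proteins without using ATP (ENSMUSG00000004951, chr5:135887919-135889563, plus strand). The 250 bases before its start are shown because it was called lower in Tumor in all 4 classes, and they held 2 matches to the same letters, at positions -117 and -97 (RefSeq, GRCm38.p6, chr5:135887669-135887918, plus strand, matches in capitals).
Hspb1: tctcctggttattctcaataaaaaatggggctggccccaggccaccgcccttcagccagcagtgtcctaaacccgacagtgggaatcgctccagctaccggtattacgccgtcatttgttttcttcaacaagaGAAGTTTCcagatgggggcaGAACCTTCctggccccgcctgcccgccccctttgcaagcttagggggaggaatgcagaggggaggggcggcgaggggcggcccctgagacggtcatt
In epithelial-like cells it was at 1289 and 2034 CPM in Prepuberty, 4610.4 and 5485 CPM in DCIS and 530.5 and 278 CPM in Tumor. Both Tumor libraries lay below both Prepuberty libraries, which lay below both DCIS libraries. Hspb1 fell 15.7-fold from DCIS to Tumor (log2 fold change -3.97 ± 0.52 (SE), adjusted p = 0.028, adjusted p 0.00638 to 0.17 with 1 library left out, above 0.05 without DCIS 1 or DCIS 2, log2 fold change -4.76 without Tumor 1) and was lower in Tumor than in Prepuberty (log2 fold change -2.23 ± 0.48 (SE), adjusted p = 0.0377, adjusted p 0.0112 to 0.165 with 1 library left out, above 0.05 without Prepuberty 1 or Prepuberty 2, log2 fold change -3.01 without Tumor 1). The difference between DCIS and Prepuberty did not pass (log2 fold change 1.74 ± 0.47 (SE), adjusted p = 0.278).

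In fibroblast-like cells Hspb1 was lower throughout, at 178 and 388 CPM in Prepuberty, 885 and 842 CPM in DCIS and 297 and 146 CPM in Tumor. It fell from DCIS to Tumor (log2 fold change -2.58 ± 0.57 (SE), adjusted p = 0.0255, adjusted p 0.0121 to 0.133 with 1 library left out, above 0.05 without DCIS 1, DCIS 2 or Tumor 2, log2 fold change -3.51 without Tumor 1), the Tumor and Prepuberty libraries overlapped, and DCIS against Prepuberty did not pass (log2 fold change 1.86 ± 0.55 (SE), adjusted p = 0.464). In endothelial-like cells it reached its highest levels, at 4606 and 6055 CPM in Prepuberty, 11262 and 9910.0 CPM in DCIS and 662 and 162 CPM in Tumor. The DCIS libraries lay above Prepuberty (log2 fold change 1.32 ± 0.58 (SE), adjusted p = 0.414) and the Tumor libraries below it. Hspb1 fell 31-fold from DCIS (log2 fold change -4.95 ± 0.68 (SE), adjusted p = 0.00347, adjusted p 0.00687 to 0.0107 with 1 library left out, called in each, log2 fold change -6.62 without Tumor 1 and -4.26 without Tumor 2) and was lower in Tumor than in Prepuberty (log2 fold change -3.64 ± 0.64 (SE), adjusted p = 0.00836, adjusted p 0.00659 to 0.0149 with 1 library left out, called in each, log2 fold change -5.30 without Tumor 1 and -2.94 without Tumor 2). In macrophage-like cells, with 101 and 80.6 CPM in Prepuberty, 224 and 130.2 CPM in DCIS and 31.1 and 4.75 CPM in Tumor, the fall from DCIS to Tumor passed too (log2 fold change -3.73 ± 0.75 (SE), adjusted p = 0.0231, adjusted p 0.00234 to 0.14 with 1 library left out, above 0.05 without DCIS 1, log2 fold change -5.99 without Tumor 1 and -2.93 without Tumor 2).

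Bag3 encodes a co-chaperone that releases substrates from Hsp70 and links it to autophagy (ENSMUSG00000030847, chr7:128523616-128546981, plus strand). It followed the other inducible members only in part. In epithelial-like cells it was at 17.6 and 33.4 CPM in Prepuberty, 25.5 and 41.6 CPM in DCIS and 18.2 and 14.5 CPM in Tumor, so that DCIS and Prepuberty overlapped (log2 fold change 0.57 ± 0.42 (SE), adjusted p = 0.564) and the change to Tumor did not pass (log2 fold change -1.41 ± 0.42 (SE), adjusted p = 0.102). In fibroblast-like cells it was at 59.5 and 76.2 CPM in Prepuberty, 83.8 and 90.3 CPM in DCIS and 43.9 and 28.2 CPM in Tumor, and the fall from DCIS to Tumor passed (log2 fold change -1.92 ± 0.41 (SE), adjusted p = 0.0233, adjusted p 0.0111 to 0.147 with 1 library left out, above 0.05 without DCIS 1, DCIS 2 or Tumor 2, log2 fold change -2.57 without Tumor 1) while DCIS against Prepuberty did not (log2 fold change 0.60 ± 0.39 (SE), adjusted p = 0.593). Endothelial-like cells held 139 and 189 CPM in Prepuberty, 127 and 208 CPM in DCIS and 49.6 and 20.8 CPM in Tumor. The gland libraries overlapped (log2 fold change 0.33 ± 0.32 (SE), adjusted p = 0.69), and Tumor was lower than DCIS (log2 fold change -2.37 ± 0.39 (SE), adjusted p = 0.00714, adjusted p 0.0125 to 0.0305 with 1 library left out, called in each, log2 fold change -3.57 without Tumor 1) and than Prepuberty (log2 fold change -2.04 ± 0.39 (SE), adjusted p = 0.012, adjusted p 0.0153 to 0.0444 with 1 library left out, called in each, log2 fold change -3.24 without Tumor 1). In macrophage-like cells all 6 libraries lay between 15.5 and 27.1 CPM.

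Hspa8 encodes Hsc70, the constitutive Hsp70 that folds new proteins and uncoats clathrin vesicles (ENSMUSG00000015656, chr9:40800984-40810087, plus strand). In epithelial-like cells it was at 1140.0 and 888 CPM in Prepuberty, 2436 and 2015 CPM in DCIS and 1348 and 1236 CPM in Tumor. Both DCIS libraries were highest, and in CPM both Tumor libraries also lay above both Prepuberty libraries. With normalization Tumor and Prepuberty hardly differed (log2 fold change 0.08). The differences did not pass, at log2 fold change 1.24 ± 0.34 (SE), adjusted p = 0.282, between DCIS and Prepuberty and log2 fold change -1.16 ± 0.34 (SE), adjusted p = 0.102, between Tumor and DCIS. In endothelial-like cells it was at 2439 and 3908 CPM in Prepuberty, 4710.4 and 4377 CPM in DCIS and 2769 and 1345 CPM in Tumor and in fibroblast-like cells at 853 and 1729 CPM in Prepuberty, 2599 and 1745 CPM in DCIS and 1434 and 1297 CPM in Tumor, with DCIS libraries again highest. The fall to Tumor in endothelial-like cells just missed the threshold (log2 fold change -1.46 ± 0.43 (SE), adjusted p = 0.0558). Macrophage-like cells went the other way, with 1462 and 1576 CPM in Prepuberty, 1127 and 935 CPM in DCIS and 1849 and 1299 CPM in Tumor and both DCIS libraries lowest.

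Hsp90aa1 encodes the stress-responsive cytosolic Hsp90, which matures kinases and steroid receptors (ENSMUSG00000021270, chr12:110690605-110702728, minus strand). In epithelial-like cells it was at 339.9 and 498 CPM in Prepuberty, 1511 and 1390.0 CPM in DCIS and 1169 and 794 CPM in Tumor. DCIS was highest. Between Tumor and Prepuberty the normalized log2 fold change was 1.01, against 0.75 for Hspa1b, 0.08 for Hspa8 and 0.47 for Hspd1, and none of these was called. The tests for Hsp90aa1 gave log2 fold change 1.93 ± 0.39 (SE), adjusted p = 0.221, between DCIS and Prepuberty and log2 fold change -0.91 ± 0.38 (SE), adjusted p = 0.189, between Tumor and DCIS. In fibroblast-like cells the 6 libraries lay between 604 and 1018 CPM and in endothelial-like cells between 346 and 1983 CPM, and the state groups overlapped in both. In macrophage-like cells the DCIS libraries (320.4 and 270.4 CPM) were the lowest.

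Hspd1 and Hspe1 encode Hsp60 and its lid Hsp10, which together fold proteins inside mitochondria. They stand head to head on chromosome 1, Hspd1 (ENSMUSG00000025980) at chr1:55077835-55088243 on the minus strand and Hspe1 (ENSMUSG00000073676) at chr1:55088132-55091307 on the plus strand. In this annotation their 5′ ends overlap on opposite strands, away from the 3′ ends that were counted. The RefSeq starts used here leave 215 bases between them. A run of HSF1 units in this stretch is shown, since both genes share it, as 30 bases of the plus strand at chr1:55088053-55088082 (GRCm38.p6), with the 18 bases of the run in capitals.
Hspd1 and Hspe1: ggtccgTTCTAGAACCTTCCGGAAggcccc
The 3-unit form, in which either of these letter strings is followed by NN and a further inverted unit, was matched in the promoter windows of Hspd1, Hspe1 and Hsph1 and in those of 0.662% of all 27025 genes, and Hspd1 and Hspe1 share this 1 site. In epithelial-like cells Hspd1 was at 141 and 174 CPM in Prepuberty, 398 and 356 CPM in DCIS and 220.2 and 313 CPM in Tumor, and Hspe1 at 513 and 505 CPM in Prepuberty, 1096 and 1031 CPM in DCIS and 689 and 464 CPM in Tumor. DCIS was highest for both. The tests for Hspd1 gave log2 fold change 1.39 ± 0.28 (SE), adjusted p = 0.218, between DCIS and Prepuberty and log2 fold change -0.91 ± 0.27 (SE), adjusted p = 0.102, between Tumor and DCIS. Those for Hspe1 gave log2 fold change 1.18 ± 0.37 (SE), adjusted p = 0.3, and log2 fold change -1.23 ± 0.37 (SE), adjusted p = 0.104.

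In fibroblast-like cells Hspd1 was at 236 and 479 CPM in Prepuberty, 373 and 377 CPM in DCIS and 196 and 338 CPM in Tumor, with overlapping groups of glands, and Hspe1 at 1151 and 1194 CPM in Prepuberty, 1526 and 1588 CPM in DCIS and 626 and 487 CPM in Tumor, with the Tumor libraries well below all glands. Hspe1 fell from DCIS to Tumor (log2 fold change -2.14 ± 0.38 (SE), adjusted p = 0.0144, adjusted p 0.00848 to 0.114 with 1 library left out, above 0.05 without DCIS 1 or DCIS 2) and was lower than in Prepuberty (log2 fold change -1.50 ± 0.38 (SE), adjusted p = 0.0449, adjusted p 0.0155 to 0.155 with 1 library left out, above 0.05 without Prepuberty 1, Prepuberty 2 or Tumor 2). In endothelial-like cells Hspd1 was at 272 and 403 CPM in Prepuberty, 318 and 392 CPM in DCIS and 119 and 183 CPM in Tumor, and Hspe1 at 1169.9 and 1492 CPM in Prepuberty, 1562 and 1658 CPM in DCIS and 384 and 349.8 CPM in Tumor. Both stood lower in Tumor than in any gland library. Hspd1 fell from DCIS (log2 fold change -1.62 ± 0.29 (SE), adjusted p = 0.00919, adjusted p 0.0256 to 0.0452 with 1 library left out, called in each) and was lower than in Prepuberty (log2 fold change -1.23 ± 0.29 (SE), adjusted p = 0.0255, adjusted p 0.0427 to 0.131 with 1 library left out, above 0.05 without Prepuberty 2 or Tumor 1). Hspe1 did so too, from DCIS (log2 fold change -2.48 ± 0.30 (SE), adjusted p = 0.00238, adjusted p 0.0101 to 0.017 with 1 library left out, called in each) and against Prepuberty (log2 fold change -1.88 ± 0.29 (SE), adjusted p = 0.0051, adjusted p 0.0113 to 0.0286 with 1 library left out, called in each). In macrophage-like cells Hspd1 was at 43 and 89.6 CPM in Prepuberty, 50.4 and 47.5 CPM in DCIS and 117 and 292 CPM in Tumor, so that it stood highest in both Tumor libraries, without passing the test against DCIS (log2 fold change 1.40 ± 0.41 (SE), adjusted p = 0.0706). Hspe1 there lay between 253 and 512 CPM.

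Whether the change from DCIS to Tumor differed among the 4 classes was tested in 1 fit over the 16 sums of the 4 libraries, with the library as a block. It differed for 7 of 10 members, where 18.4% of all genes passed. These were Hspd1 (adjusted p = 0.000528), Hspe1 (0.000914), Dnajb1 (0.0066), Hspa8 (0.0136), Hspa1a (0.017), Hspb1 (0.0222) and Hspa1b (0.0413). Hsph1 (0.0641), Hsp90aa1 (0.0851) and Bag3 (0.139) did not pass. In macrophage-like cells the log2 change was higher than in epithelial-like cells by 2.49 ± 0.50 (SE) for Hspa1a, 2.27 ± 0.30 for Hspd1, 1.43 ± 0.31 for Hspe1, 1.38 ± 0.34 for Dnajb1 and 1.20 ± 0.32 for Hspa8, so inducible as well as constitutive members were among them. Against epithelial-like cells, endothelial-like cells fell further for Hspe1 (-1.26 ± 0.31), Hspb1 (-1.27 ± 0.50) and Hspa1b (-1.72 ± 0.57). Neutrophil markers in the macrophage-like sums summed to 939 and 5081 CPM in Tumor against 39.7 to 434 CPM in the glands, with 1 of 5 markers at 0 in Prepuberty, 2 in DCIS and none in Tumor, and their part in the macrophage-like values was not tested. The count was 2 without DCIS 1, 0 without DCIS 2 (6 members had an unadjusted p under 0.05), 10 without Tumor 1 and 8 without Tumor 2.

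Among classes the endothelial-like cells held the highest level of most members in the glands. By the mean of the 2 libraries of a state they came first for 9 of 10 members among 8 classes in Prepuberty and for 7 among 9 classes in DCIS, where Schwann-like cells led for Hsp90aa1 and Hspd1 and pericyte- or smooth-muscle-like cells for Dnajb1. In Tumor they came first for 5 members among 6 classes and last for Hspd1 (mean 151 CPM) and Hspe1 (mean 367 CPM). Over the libraries with a value, which for Schwann-like cells include no Tumor library and for pericyte- or smooth-muscle-like cells 1, their median was the highest of the 9 named classes for 8 of 10 members, among them Hspb1 (5330.3 CPM, range 162 to 11262), Hspa8 (3339 CPM) and Hspa1a (1972 CPM). The exceptions were Dnajb1, highest in pericyte- or smooth-muscle-like cells (425 CPM), and Hspd1, highest in fibroblast-like cells (356 CPM). Neighbouring classes in this order overlapped in range for every member. Within single libraries the endothelial-like level of Hspa1a and of Hspa8 was the highest of the 4 tested classes in 6 of 6, that of Hspa1b, Hsph1, Hspb1 and Bag3 in 5 of 6, and that of Hspd1 in 2 of 6. These are descriptions, without a test.

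**Figure D3:**
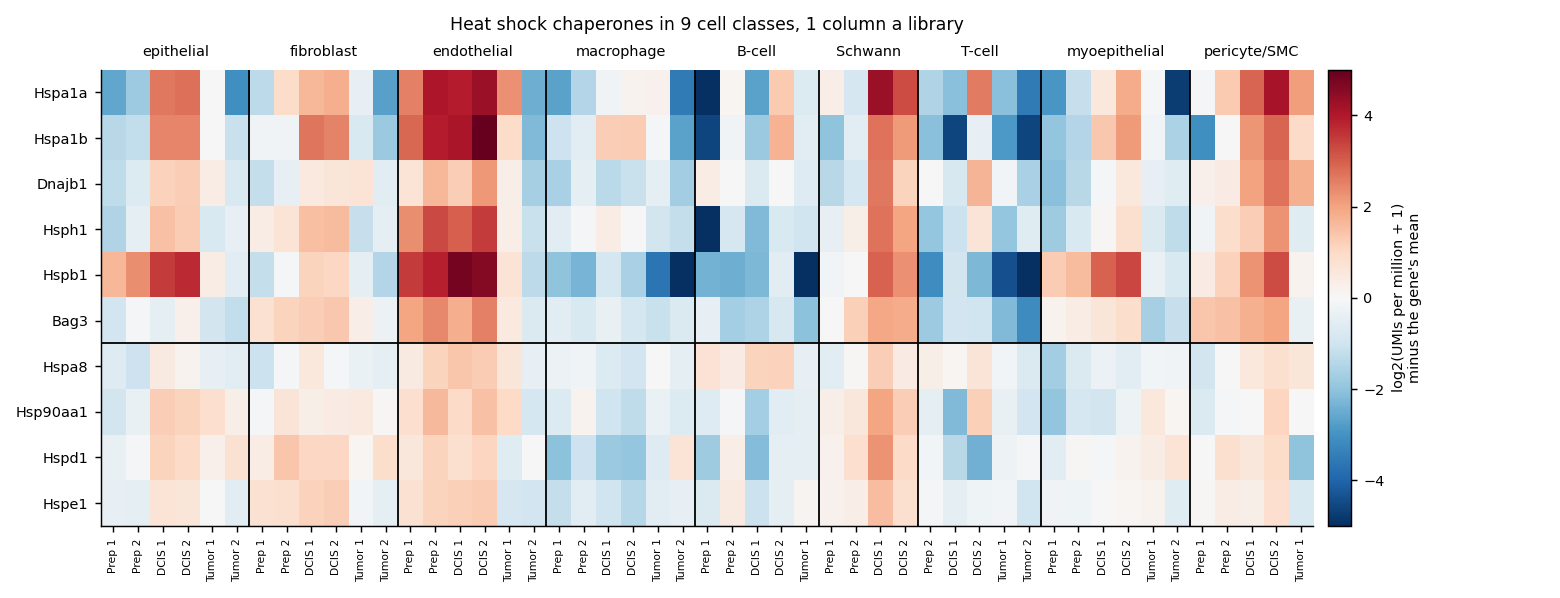
Level of each member in 9 cell classes, as log2(CPM + 1) minus the mean of the gene, 1 column for each library with at least 10 cells of the class, with inducible members above the black line. The Hspa1a row is red in the endothelial-like columns of the glands (1079.6 to 3674 CPM) and in the DCIS columns of Schwann-like cells (3746 and 1797 CPM).

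The smaller classes were described without a test, since some libraries held too few of their cells. In Schwann-like cells both DCIS libraries lay above both Prepuberty libraries for 10 of 10 members (17.7% of the genes with a mean of at least 20 CPM there), Hspa1a being at 232 and 105 CPM in Prepuberty and 3746 and 1797 CPM in DCIS. In myoepithelial-like cells this held for 8 of 10 members (14.8% of such genes), in pericyte- or smooth-muscle-like cells for 8 of 10 (16.2%), and in both for all 6 inducible ones. In T-cell-like cells 3 of 10 members stood higher in both DCIS libraries than in the 1 Prepuberty library (25.1% of genes over the same level, which 8 of the 10 members reached). These were Hsph1, Hspb1 and Bag3. Bag3 did not reach that level, at 17.3 and 17.2 CPM in DCIS, so the share does not cover it. In the cells named myoepithelial-like both Tumor libraries lay below both DCIS libraries for the 6 inducible members and for none of the 4 constitutive ones (17.4% of such genes). The Tumor cells under this name differed from those of the glands, since T antigen UMIs were found in 53.1 and 57.6% of them against at most 1.51% in the glands. Their epithelial markers summed to 6269 and 2799 CPM and their myoepithelial markers to 2060 and 5204 CPM, against 692 to 1586 CPM and 5967 to 11098 CPM in the glands, and the part of this in the values was not tested. The cells named B-cell-like were not compared between states. Their B cell markers summed to 182 and 9978 CPM in Prepuberty, 39.5 and 25.9 CPM in DCIS and 2179 CPM in Tumor 1, and their dendritic cell markers to 1398 to 3225 CPM, so that in 3 of 5 libraries they carried more of the latter.

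The inducible sums kept this order of the states within clusters. In each of the 6 epithelial-like clusters with 20 or more cells in both states, the summed inducible members of both DCIS libraries lay above every Prepuberty library, and in all 5 with Tumor cells above every Tumor library. The same was found in 4 of 4 and 3 of 3 fibroblast-like clusters and in 2 of 2 and 1 of 1 endothelial-like clusters. These orders hold for the sums and not for every member. Dnajb1 in fibroblast-like cluster 5 was at 274 CPM in Tumor 1 against 137 and 169 CPM in DCIS. In endothelial-like cluster 6 Prepuberty 2 lay above DCIS 1 for Dnajb1 (443 against 377 CPM), Hsph1 (648 against 625 CPM) and Bag3 (215 against 163 CPM). In fibroblast-like cluster 10 it did so for Hspa1a (2079 against 1811 CPM). In epithelial-like cluster 1, which had the highest DCIS values of this class, the sum was 2027 CPM in Prepuberty 1, 14100.4 and 12669.5 CPM in DCIS and 1063 and 444 CPM in Tumor. Hspb1 alone made up 1554 CPM of it in Prepuberty 1, 9931 and 7374 CPM in DCIS and 571 and 278 CPM in Tumor. Cluster 12 had the lowest DCIS values, at 3260 and 4029 CPM. Depth differed between states in cluster 1, with 344873 UMIs from 126 cells in Prepuberty 1 and 18415242 from 1114 cells in Tumor 1. Constitutive members gave the same order in all 6 and all 5 epithelial-like clusters but in only 2 of 4 and 2 of 3 fibroblast-like ones. Without Hsp90aa1, a choice made after these values were seen, the fibroblast-like counts were 2 of 4 and 3 of 3 and the others stayed as they were. Different clusters held most epithelial-like cells in different states, clusters 12, 2 and 20 in Prepuberty 1 and clusters 1, 3 and 4 in Tumor 1.

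**Figure D4:**
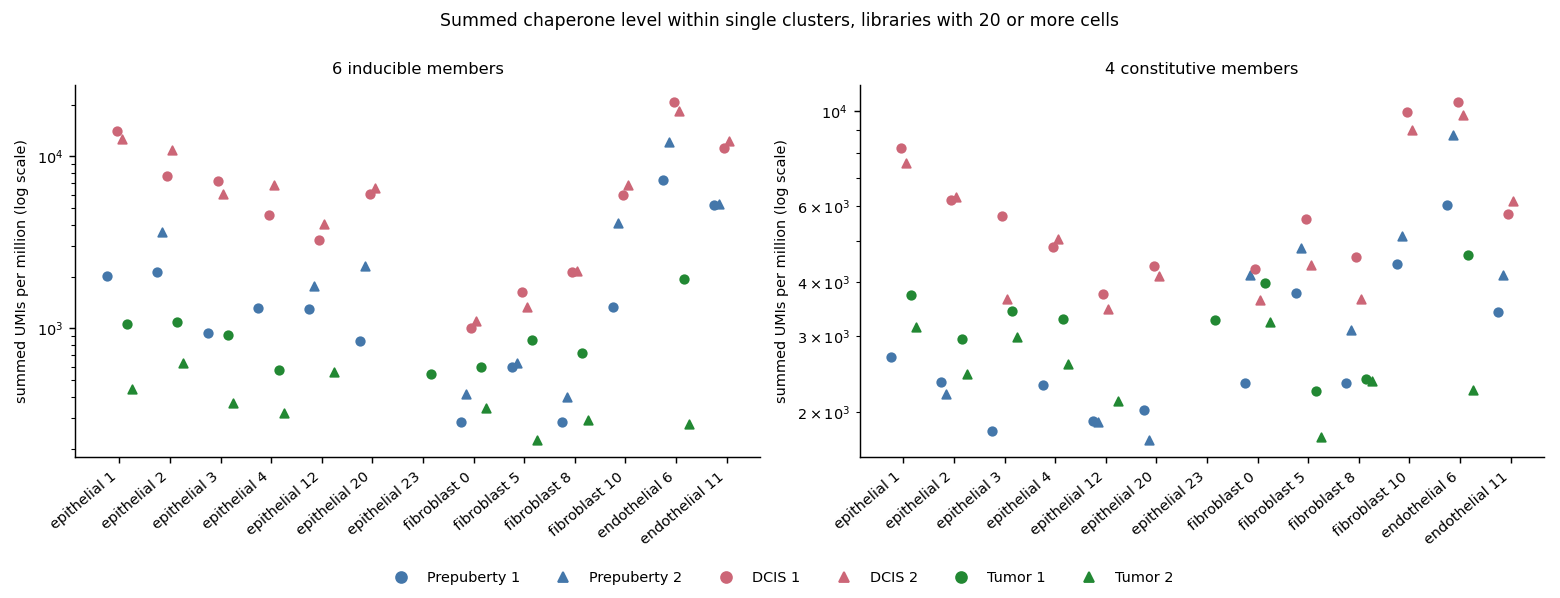
Summed CPM of the 6 inducible (left) and 4 constitutive members (right) on a log scale within each epithelial-like, fibroblast-like and endothelial-like cluster, 1 point for each library with 20 or more cells there. In each cluster that holds both states the DCIS points of the inducible sum lie above all others, as in epithelial-like cluster 1, the highest of that class, at 14100.4 and 12669.5 CPM. Of these, Hspb1 alone made up 9931 and 7374 CPM, and single members did not all keep this order.

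A small share of the cells carried most of the Hsp70 transcripts. The tenth of epithelial-like cells with the most Hspa1a and Hspa1b UMIs held 85.8 and 74.7% of these UMIs in DCIS. It held 85.0 and 61.9% in Prepuberty and 73.2 and 61.1% in Tumor, so this was not particular to DCIS. With cells thinned to 2000 UMIs these shares were 85.9 and 77.7%, 100 and 84.6%, and 80.3 and 100%. In endothelial-like cells the unthinned shares were 60.7 and 51.9% in DCIS, 73.4 and 72.8% in Prepuberty and 87.9 and 100% in Tumor. After each cell was thinned to 2000 UMIs, Hspa1a was found in 2.76 and 10% of epithelial-like cells in Prepuberty, 31.8 and 40.7% in DCIS and 17.1 and 3.59% in Tumor. Before thinning these shares were 13.2 and 41.4%, 57.6 and 65.8%, and 49.5 and 22.9%, at median depths of 8697 to 16984 UMIs. The thinning left out 94 and 11 shallower cells in Prepuberty, 119 and 37 in DCIS and 34 and 23 in Tumor. As a comparison for free RNA, the thinned share in T-cell-like cells was 5.71% in Prepuberty 2, 5% and 12.5% in DCIS and 6.25% and 1.47% in Tumor, and before thinning 6.45%, 7.02%, 31.2%, 7.87% and 0.952%, at median depths of 1221 to 2543 UMIs and with 24 to 98 of 32 to 178 cells left out. The epithelial-like share lay above that of T-cell-like cells in each of these 5 libraries, by little in Prepuberty 2 and Tumor 2, and Prepuberty 1 held too few T-cell-like cells for a value. DCIS 1 and DCIS 2 held only 57 and 32 T-cell-like cells before shallow ones were left out, so their thinned shares rest on very few cells. The part of free RNA was not tested, nor was that of transcripts made by the T-cell-like cells themselves. For Hspb1 the thinned shares of epithelial-like cells were 78.2 and 84% in Prepuberty, 86.4 and 88.6% in DCIS and 45 and 35.4% in Tumor. Cells of 1 library are no replicates, and these shares were not tested.

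Immediate early genes, the other group that dissociation is known to induce, did not keep the order of the inducible members. The part of dissociation in either group was not tested. In epithelial-like cells the 6 inducible members summed to 1413 and 2242 CPM in Prepuberty, 6359 and 7334 CPM in DCIS and 943 and 436 CPM in Tumor, and 14 immediate early genes to 1800.3 and 3812 CPM in Prepuberty, 1934 and 2506 CPM in DCIS and 5525 and 2141 CPM in Tumor. In endothelial-like cells the inducible sums were 6473 and 10646 CPM in Prepuberty, 15380.0 and 15765 CPM in DCIS and 1878 and 283 CPM in Tumor and the immediate early sums 2556 and 6239 CPM in Prepuberty, 4342 and 3834 CPM in DCIS and 6138 and 1358 CPM in Tumor. The immediate early sum was highest in Tumor 1 in epithelial-like, fibroblast-like and macrophage-like cells, whereas the inducible sum was lower there than in DCIS in each class. From DCIS to Tumor, 1 of 14 immediate early genes was called higher in fibroblast-like cells (Fosb, log2 fold change 3.15 ± 0.82, where 9.12% of all genes were called higher) and 2 in macrophage-like cells (Fosb, 4.42 ± 0.78, and Fos, 1.69 ± 0.42, against 2.05%). In endothelial-like cells Ier3 was called lower (-2.65 ± 0.66, against 6.79% of all genes). In epithelial-like cells edgeR called 0 of 14, with 2 at an unadjusted p under 0.05 and 1 called by DESeq2. Between Prepuberty and DCIS edgeR and DESeq2 called none of the 14 in any class, and 0 to 1 a class had an unadjusted p under 0.05.

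**Figure D5:**
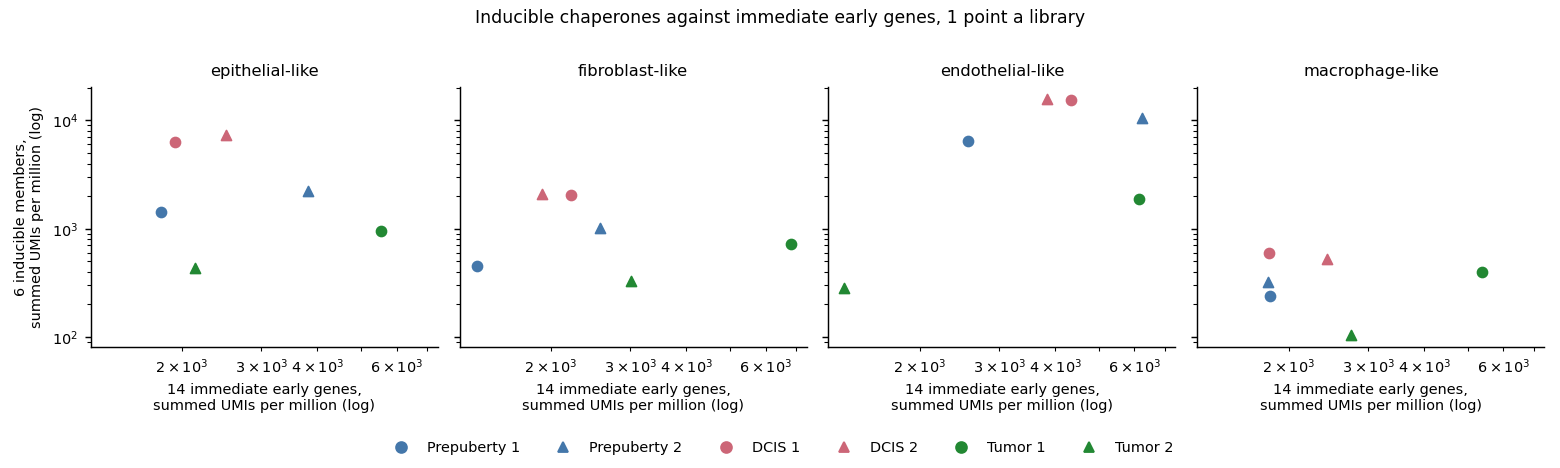
Summed CPM of the 6 inducible members (vertical) against that of 14 immediate early genes (horizontal), both on log scales, 1 point a library in each of 4 classes. DCIS points lie at the top in each class, at 6359 and 7334 CPM in epithelial-like cells, while the farthest right point in 3 of the 4 classes is Tumor 1, at 5525 CPM in epithelial-like cells.

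Other measures moved with the Tumor state, and their part in the values above was not tested. The median mitochondrial share of endothelial-like cells was 2.02 to 2.29% in the glands and 3.29 and 4.88% in the tumors. In fibroblast-like cells UMIs of the T antigen were found in at most 0.62% of gland cells and in 34.0 and 46.6% of tumor cells, the 7 myoepithelial markers summed to 21.4 to 30.3 CPM in the glands and 1073 and 548 CPM in the tumors, the 8 epithelial markers summed to 15.2 to 82.8 CPM in the glands and 672 and 160.0 CPM in the tumors, and all 8 proliferation genes were called higher in Tumor than in DCIS, where 9.12% of all genes were. In epithelial-like cells the myoepithelial markers summed to 228 to 1045 CPM in the glands and 1419 and 2514 CPM in the tumors, and the epithelial markers to 8023 to 14100.2 CPM and 7512 and 4494 CPM. Without the cells that carried T antigen UMIs, 4 members in place of 5 were called lower in fibroblast-like cells. In endothelial-like cells 4 of 8 proliferation genes were called higher, where 7.38% of all genes were. Barcodes with too large a mitochondrial share, which were left out, held the inducible members at 1258 and 2484 CPM in Prepuberty, 6677 and 4378 CPM in DCIS and 436 and 236 CPM in Tumor, the same order of states as in the cells kept. Barcodes with too few genes held them at 24.9 to 203 CPM.

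Other chaperones and HSF1 targets were followed in lists drawn up by function. Of 15 other HSF1 targets tested, 11 fell from DCIS to Tumor in endothelial-like cells (6.79% of all genes fell there), among them Hspa4l, an Hsp110 relative (log2 fold change -4.33 ± 0.46), Dedd2 (-2.19 ± 0.45), the J-domain protein Dnajb4 (-2.16 ± 0.28), the Hsp70 to Hsp90 adaptor Stip1 (-2.03 ± 0.39) and Cacybp (-1.76 ± 0.26). In fibroblast-like cells 4 of 15 fell (6.37% of all genes), among them Cryab, a small heat shock protein (-3.97 ± 0.70), Hspb8 (-2.57 ± 0.47) and Cacybp (-1.31 ± 0.34). In epithelial-like and macrophage-like cells edgeR called none, with 2 of 15 and 3 of 14 at an unadjusted p under 0.05, and DESeq2 called 1 and 0. Of the endoplasmic reticulum list, which holds chaperones and the factors Ddit3 and Xbp1 of the unfolded protein response, some genes fell as well, 5 of 14 in endothelial-like cells (Sdf2l1 -2.25 ± 0.27, Ddit3 -2.09 ± 0.46, Hspa5 -1.75 ± 0.36, Xbp1 -1.49 ± 0.26 and Dnajb9 -1.33 ± 0.37) and 5 of 14 in fibroblast-like cells (Ddit3 -3.54 ± 0.73, Sdf2l1 -2.15 ± 0.54, Hspa5 -2.07 ± 0.40, Pdia4 -1.69 ± 0.36 and Herpud1 -1.48 ± 0.39). In epithelial-like cells edgeR called none of the 14 (3 at an unadjusted p under 0.05), 10 of 14 had a positive value and the median log2 fold change was 0.39, against 0.08 for all genes. In macrophage-like cells it called none of 13 (1 unadjusted), with a median of 0.04.

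The remaining lists held housekeeping chaperones and the heat shock factors, to be read against the same shares of all genes that fell and, for macrophage-like cells, 2.05% that rose. Of the 10 cytosolic partners, 3 fell in endothelial-like cells (Ptges3 -1.78 ± 0.35, St13 -1.35 ± 0.27 and Hsp90ab1 -1.14 ± 0.30) and 1 in fibroblast-like cells (Ptges3 -1.43 ± 0.32). Of 7 subunits of the chaperonin TRiC, which folds actin and tubulin, Cct7 fell in endothelial-like cells (-1.22 ± 0.27) and Cct3 rose in macrophage-like cells (1.85 ± 0.39). The mitochondrial Hsp70 gene Hspa9 fell in endothelial-like (-1.60 ± 0.33) and fibroblast-like cells (-1.77 ± 0.37), 1 of 6 mitochondrial genes in each. Of the 3 genes for the factors Hsf1 and Hsf2 and the factors' binding protein Hsbp1, Hsf2 fell in fibroblast-like cells (-2.21 ± 0.46), while Hsf1 was called in no comparison. From Prepuberty to DCIS edgeR called no gene of any of these lists in any class, at unadjusted counts of up to 5 of 15, whereas DESeq2 called Cryab and Ubb in epithelial-like and Dnajb4 and Xbp1 in endothelial-like cells.

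The levels of the members were also followed across all 48 sums of a class in a library. These sums share libraries and depths, so correlations are descriptions without a p. Pairs of inducible members correlated at Pearson r between 0.563 and 0.857 (15 pairs, log2(CPM + 1)), pairs of constitutive members between 0.183 and 0.765 (6 pairs) and mixed pairs between 0.33 and 0.741 (24 pairs). Among 5609 genes with a mean of at least 20 CPM, those most like Hspa1b were Hspa1a (0.857), Hsph1 (0.837), Hspb1 (0.72), Dnajb1 (0.715) and Gadd45g (0.693). Those most like Hspd1 were Cct7 (0.858), Rrs1 (0.832), Ppid (0.803), C1qbp (0.796) and Ppan (0.792), none of them an inducible member. Hsp90aa1 correlated more with the inducible Dnajb1 (0.733), Hsph1 (0.727) and Hspa1a (0.704) than with its fellow constitutive members Hspa8 (0.558), Hspd1 (0.589) and Hspe1 (0.675). Hspd1 and Hspe1, with their shared stretch, correlated at 0.765, and Hspa1a and Hspd1 at 0.33.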

How the data were processed

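Single-cell RNA libraries of 2 Prepuberty, 2 DCIS and 2 Tumor samples were grouped by their labels. The authors deposited unnormalized UMI counts for every gene and barcode, made with Cell Ranger 3.0.2 per the file headers, on a reference to which the SV40 large T antigen had been added, and the submitters' processing notes name mm10. Barcodes with under 200 genes (546 of 23835), a mitochondrial share of 10% or more (1045) or a high simulated-doublet score (701, at 0.8% per 1000 cells) were left out. Libraries were integrated with Seurat 5.3.0 (2000 variable genes less 17 chaperone genes, 20 components, resolution 0.8), and clusters were named from at least 3 markers.

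UMI counts were summed per library and class with at least 10 cells. Each class was fitted with edgeR 4.0.16 (filterByExpr, TMM, quasi-likelihood F test, 2-sided, all 6 libraries) in R 4.3.3, and p-values were adjusted over all genes by Benjamini-Hochberg at 0.05. With 2 libraries a state, the smallest exact permutation p would be 0.333. Whether changes differed among classes was tested as an interaction with the library as a block. DESeq2 1.42.0 was an alternative. Scripts were tested on simulated data, modelled on Tumor and DCIS in epithelial-like cells. There 1 of 67 genes changed by 1 on the log2 scale was called, 25 of 67 changed by 2 and 55 of 63 changed by 4. A further 9 unchanged genes were called. A change that did not pass may thus still be present. Depth was 2547 to 4310 cells a library, and precision is limited by 2 libraries a state.

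The members and lists were chosen with earlier results of these data known. All 10 members were named, and of each other list at most 6 genes past the threshold, by size of change, with the 5 genes most alike Hspa1b and Hspd1. The values of 1 gene of these lists are not reported here. The symbol Cct6a was not found, so 7 chaperonin genes were used. Figures were drawn with matplotlib 3.10.9.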

Additional observations from a re-analysis of the deposited data

Results flagged for a closer look

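For 7 of the 10 members the change from DCIS to Tumor differed among the 4 classes by a test of the difference itself (edgeR's interaction test over 16 sums, adjusted over 13009 genes), where 18.4% of all genes passed. The adjusted p was 0.000528 for Hspd1, 0.000914 for Hspe1, 0.0066 for Dnajb1, 0.0136 for Hspa8, 0.017 for Hspa1a, 0.0222 for Hspb1 and 0.0413 for Hspa1b. In macrophage-like cells the log2 change from DCIS to Tumor exceeded that in epithelial-like cells by 2.27 ± 0.30 (SE) for Hspd1, 1.43 ± 0.31 for Hspe1, 1.38 ± 0.34 for Dnajb1, 1.20 ± 0.32 for Hspa8 and 2.49 ± 0.50 for Hspa1a. In fibroblast-like cells it exceeded that in epithelial-like cells by 1.30 ± 0.49 for Hspb1, and the difference was -1.41 ± 0.51 for Hspa1b. The count of 7 became 2 without DCIS 1 and 0 without DCIS 2.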

How the results depend on the processing

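Of the 26 member changes that passed the test, all 26 kept their direction under every alternative run, each lost its call under at least 1, and 16 moved by over 1.5-fold under at least 1. Of the 94 changes that did not pass, 26 turned direction and 49 passed under at least 1 alternative. In endothelial-like cells the Hspa1a change from DCIS to Tumor ran from -7.19 without Tumor 1 to -0.08 without integration, around -3.02, and that of Hsp90aa1 from -2.72 to 1.27 under the same settings, around -1.18. Of 180 recomputed counts of called members, 129 stayed within 1.5 times the count reported. DESeq2 called 8 members in epithelial-like and 2 in fibroblast-like cells between DCIS and Prepuberty, 9 and 8 between Tumor and DCIS, and 4 in fibroblast-like and 1 in macrophage-like cells between Tumor and Prepuberty. With no filter on low counts, the counts between DCIS and Prepuberty were 2 in endothelial-like, 7 in epithelial-like, 4 in fibroblast-like and 2 in macrophage-like cells. Those between Tumor and DCIS were then 8 in epithelial-like, 8 in fibroblast-like and 4 in macrophage-like cells, and those between Tumor and Prepuberty 2, 5 and 1. Without integration the counts between Tumor and DCIS were 0 in endothelial-like and 0 in epithelial-like cells, those between Tumor and Prepuberty 0, 0 and, in fibroblast-like cells, 1, and the interaction count was 4. With only the 4 libraries compared, the epithelial-like counts were 2 (DCIS and Prepuberty), 0 (Tumor and DCIS) and 0 (Tumor and Prepuberty), the macrophage-like count was 2 (DCIS and Prepuberty) and the fibroblast-like count 1 (Tumor and Prepuberty). Thinned library sums gave 1 in fibroblast-like cells between Tumor and Prepuberty.

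The labels do not say that a replicate number marks a shared animal or day. Same-numbered libraries correlated in their deviations from the state means at 0.10 to 0.30 in fibroblast-like cells and, in the other classes, from at lowest -0.05 to at highest 0.32, with every pair over 0.1 in fibroblast-like cells alone, and the numbers were not taken as pairs. With the replicate block the fibroblast-like counts were 7 in place of 5 between Tumor and DCIS, Hspa1a among them, 3 in place of 2 between Tumor and Prepuberty and still 0 between DCIS and Prepuberty. The epithelial-like counts were then 1 between Tumor and DCIS and 0 between Tumor and Prepuberty, and the macrophage-like count between Tumor and Prepuberty was 1. The block moved no other count by over 1.5 times.

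With 1 library left out, the lone library of a state being assumed to vary like the others, the counts between Tumor and DCIS ranged over 6 to 10 in endothelial-like, 0 to 8 in epithelial-like, 0 to 7 in fibroblast-like and 0 to 5 in macrophage-like cells. Those between Tumor and Prepuberty ranged over 5 to 8, 0 to 5, 0 to 5 and 0 to 4, and the interaction count over 0 to 10. Between DCIS and Prepuberty they stayed at 0. The epithelial-like Hspa1a change between Tumor and Prepuberty ranged from -1.34 without Tumor 1, a reversal, to 2.09 without Tumor 2, against 1.22 with both. The cause of these shifts was not tested. Small sums, with 33 endothelial-like cells in Tumor 2, and 2 libraries a state limit every comparison.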
